A study of Mus musculus with 18 samples.

Results

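The 3′ untranslated region (3′UTR) of an mRNA follows the stop codon and is not translated. It carries binding sites for microRNAs and RNA-binding proteins, which set how long an mRNA lasts, how well it is translated and, in neurons, whether it travels into dendrites. N4-acetylcytidine (ac4C) is a modified cytidine that the acetyltransferase NAT10 writes into RNA, and in coding sequence it is known for raising mRNA stability and translation. The ac4C peaks that lay in 3′UTRs of hippocampal mRNAs are described here. Members were all rows with the class 3′UTR in the deposited peak lists, and rows that overlapped by at least 1 bp on a chromosome were merged into regions. The 6 lists held 3361 such peaks among 24703 peaks of all classes, and they merged into 1238 regions among 9429 regions of all classes.

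Hippocampal RNA of mice aged 3 months was measured by acRIP-seq, in which fragments are pulled down with an antibody against ac4C and sequenced. The 3 5xFAD samples came from mice that carry, among the alleles of this line, human APP with the Swedish, Florida and London mutations under the mouse Thy1 promoter, which is active mainly in neurons. The 3 WT samples came from littermates of the same C57BL/6J background. The methods give female mice in one place and mice of both sexes in another, so the sex of each sample is not settled. The tissue is bulk hippocampus, in which fewer cells of a type and less RNA per cell cannot be told apart.

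The deposited lists carry no read counts, which leaves the depth unknown and allows no interval for counting error. The fold enrichment (FE) of a peak is the authors' value, the acRIP signal after subtraction of IgG-IP, divided by the input, and it was not scaled between samples. The lowest FE of a 3′UTR peak was 1.14. The FDR column was 20.15% or higher for every 3′UTR peak and 100% for 24.8% to 28.7% of them in the 5xFAD samples and 20.7% to 22.1% in the WT samples. The methods keep peaks with an adjusted p under 0.05, a limit that no 3′UTR peak would meet by this column. Whether that adjusted p is the deposited FDR is not stated, and all listed peaks were used. A genotype was counted as having a region where 2 or more of its 3 samples listed a peak there, which is what called means below. A peak that is not listed may still carry ac4C, and a region without a listed peak is given as not listed. The labels number the samples as replicates, so p-values measure the spread between these samples.

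The class label was checked against gene models of the same build. The middle base of 1151 of the 1238 regions (93.0%) lay in an annotated 3′UTR on the listed strand. Another 61 lay in exons of non-coding transcripts, 6 in coding sequence, 2 in introns and 18 in no model on that strand. Models of all genes were used, so the annotated 3′UTR need not be that of the listed gene. Exons of another gene ran on the opposite strand under 72 regions, and the strand of the reads is not given in the lists. Kcnq1ot1, a long non-coding RNA that silences imprinted genes next to Kcnq1, is among the listed mRNAs although it encodes no protein.

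The sequences below are 30 bases around the middle of the first regions of each group, by mean FE for those listed in 1 genotype and by log2 fold change for those shared, read from the mm10 reference 5′ to 3′ on the transcript's strand. They are shown so that the regions behind the values can be found and compared. Capitals mark matches to CNNCNNCNN, a C followed by any 2 bases and repeated, which has been reported around ac4C in human cells. Only 1 of the 2 identical Hist1h2bq copies is given. The first 3 regions were listed in all 3 5xFAD samples and no WT sample.
Sik1, chr17:31845136-31845165, minus strand: gacaggtctacctgggcagggaaggcccag
Hist1h2bq, chr13:21806500-21806529, minus strand: gctcaccataatacactacagttttctatc
Mmgt2, chr11:62665724-62665753, plus strand: cattccgactctcaccacaggttcctcctg
The next 4 were listed in all 3 WT samples and no 5xFAD sample.
Smg9, chr7:24408226-24408255, plus strand: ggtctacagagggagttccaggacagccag
Omp, chr7:98143410-98143439, minus strand: tgcctcactcggatcCGTCTGCCCtgtggg
Btg2, chr1:134076909-134076938, minus strand: atgcctggtccctctcttactcaggggcat
Kcnh1, chr1:192507433-192507462, plus strand: ggtgcacacctggagagatgtcaggggcgt
The next 4 were called in both genotypes and stood higher in 5xFAD.
Hmox1, chr8:75100322-75100351, plus strand: ccatgttgactgaCCACGACTGCTGtcccc
Stx3, chr19:11775945-11775974, minus strand: ctttgagcttggcttttaactctttaaggt
Ankrd17, chr5:90228210-90228239, minus strand: cttttcaagcatctatgtcttagtttgaaa
Cav1, chr6:17340869-17340898, plus strand: atatttttaaaattccagataggctttcat
The last 4 were called in both genotypes and stood lower in 5xFAD.
Vwa1, chr4:155769388-155769417, minus strand: ttatcccaagcttaCTCCATCTCttcccca
Sox4, chr13:28949699-28949728, minus strand: acctttCAACCCCCTggtcttataagggga
Fbxo42, chr4:141203266-141203295, plus strand: caCAACCCCACCTGCCCCGTgttttgggag
Ptgfrn, chr3:101042757-101042786, minus strand: tataacttcttggcccgtaagccttttgtt

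The number of 3′UTR peaks was close in the 2 genotypes, while their share of the lists was larger in 5xFAD. The 5xFAD samples listed 568, 544 and 577 of them and the WT samples 543, 584 and 545, so the ranges overlapped (exact two-sided permutation test, p = 0.9, n = 3 each). They made up 14.5%, 14.6% and 14.9% of all listed peaks in 5xFAD and 13.1%, 12.8% and 12.2% in WT, where all classes together held more peaks. The shares did not overlap, 14.6% ± 0.201 in 5xFAD against 12.7% ± 0.438 in WT (SD, n = 3 each). With 3 samples against 3 the exact permutation test cannot go below p = 0.1, the value it gave here, and over the 100 values per sample compared in this way the adjusted p was 0.189. The median FE was 15.2, 15.9 and 16.95 in the 5xFAD samples and 18.4, 18.3 and 18.2 in the WT samples, also without overlap (exact permutation p = 0.1). Peaks with an FE under 5 made up 17.7% to 18.2% of the 3′UTR peaks in 5xFAD and 13.4% to 15.5% in WT. When only peaks with an FE of at least 5 were kept, the difference of the median FE, 5xFAD minus WT, turned to 0.452 (exact permutation p = 1).

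**Figure D1:**
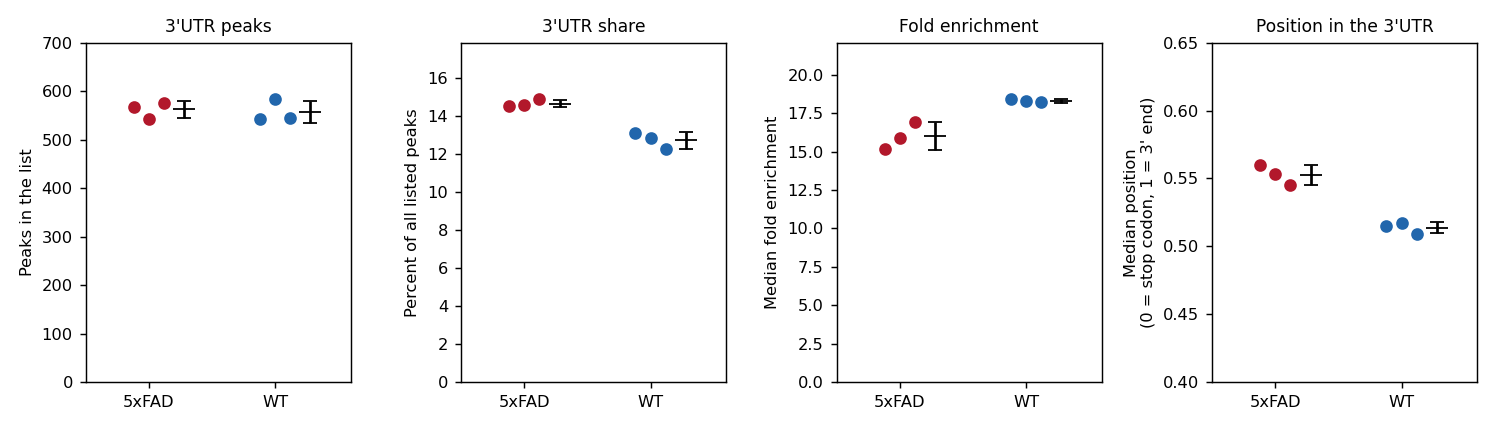
Number of 3′UTR peaks, their percent of all listed peaks, their median fold enrichment and their median position in the 3′UTR, with one point per sample and the mean ± SD of 3 samples beside it (5xFAD left, WT right). The counts overlapped between genotypes, at 544 to 577 in 5xFAD and 543 to 584 in WT, while the other values did not. The position axis does not start at 0.

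The mRNAs with 3′UTR peaks mostly carried nothing else. A 3′UTR peak was the only peak on its mRNA in 64.4%, 65.4% and 65.7% of cases in the 5xFAD samples and in 59.7%, 57.0% and 57.8% in the WT samples. For peaks of the other classes the share was 39.7% to 44.4%, lower in 6 of 6 samples (exact sign-flip permutation test over the 6 samples, p = 0.0312, the smallest it can give, and adjusted p = 0.0353 over 26 comparisons of classes within samples).

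Peaks in 3′UTRs were longer and less enriched than those of the other classes in every sample. Their median length was 308, 307 and 309 bp in the 5xFAD samples and 311, 311 and 312 bp in the WT samples, against 94.0 to 99.0 bp in coding sequence and 276 to 284 bp around the stop codon. Their median FE of 15.2 to 18.4 over the 6 samples was below that of stop codon peaks, 16.1 to 20.9, of coding-sequence peaks, 22.4 to 24.8, and of start codon peaks, 23.7 to 35.8. Each of these differences held in 6 of 6 samples with the same exact permutation p. The ratio of the median FE of 3′UTR peaks to that of all other peaks was 0.708 ± 0.0106 in 5xFAD and 0.741 ± 0.0234 in WT with overlap (exact permutation p = 0.2, n = 3 each).

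The ends of the peaks set 3′UTRs apart from the other classes. In coding sequence 91.0% to 92.1% of the peaks of a sample began or ended exactly at an annotated exon end, and around the stop codon 47.2% to 52.1% did so. In the 3′UTR, which mostly is 1 long exon, 5.72% to 8.07% did. Identical ends in 2 samples of a genotype were found for 34.1% of the 3′UTR peaks on average over the 6 pairs, against 66.7% of the peaks of other classes. The part of exon ends in this difference was not tested.

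**Figure D2:**
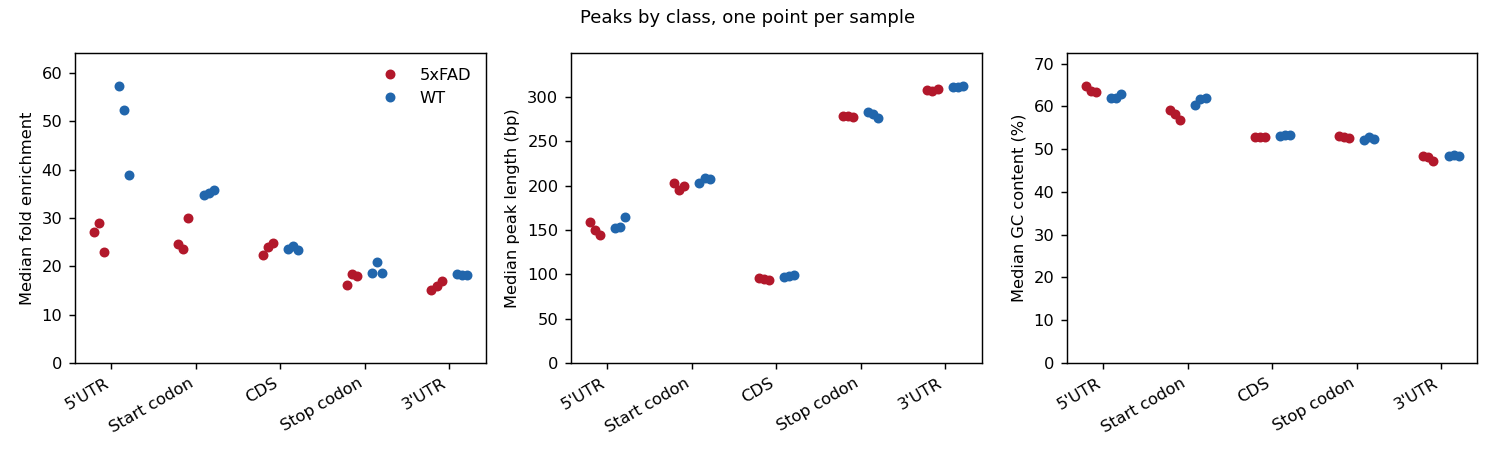
Median fold enrichment, median length in bp and median GC content in percent of the peaks of each class, with one point per sample (5xFAD left in red, WT right in blue). Peaks in 3′UTRs had the longest median length, 307 to 312 bp, the lowest median GC content, 47.2% to 48.7%, and, at 15.2 to 18.4, a median fold enrichment below that of every other class within each sample.

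Few of the 3′UTR peaks had their middle near either end of the 3′UTR. Of the 3361 peaks, 3103 could be placed on a 3′UTR by their listed transcript or another transcript of the gene. Of 10 equal bins, the first held 1.22% to 1.53% of the placed peaks in 5xFAD and 2.16% to 2.37% in WT, and the last 5.30% to 6.90% in 5xFAD and 4.96% to 5.30% in WT. The middle of a peak lay at a median of 0.560, 0.553 and 0.545 of the 3′UTR length in the 5xFAD samples and at 0.515, 0.517 and 0.509 in the WT samples, counted from the stop codon. The groups did not overlap (exact permutation p = 0.1, n = 3 each). The distance from the stop codon in bases overlapped, at 1233 to 1274 in 5xFAD and 1192 to 1251 in WT (exact permutation p = 0.4). With the 3′UTR divided into 3 equal stretches, the last held 35.8% ± 0.843 of the peaks in 5xFAD and 33.6% ± 0.513 in WT, and the first held 24.0% ± 0.811 in 5xFAD and 25.7% ± 0.537 in WT (SD, n = 3 each). The share was larger in the last than in the first in 6 of 6 samples (exact sign-flip permutation p = 0.0312). Peaks that reach the stop codon form a class of their own, so the first bases of a 3′UTR were emptied by that definition. A peak inside the 3′UTR also cannot have its middle at either end, so its length emptied part of both end bins. The first and last stretches were thus emptied unequally, and their comparison cannot tell placement from these limits. The median FE did not follow the position, at 14.7 to 20.4 in the first stretch and 15.5 to 18.4 in the last over the 6 samples (exact sign-flip permutation p = 0.812).

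**Figure D3:**
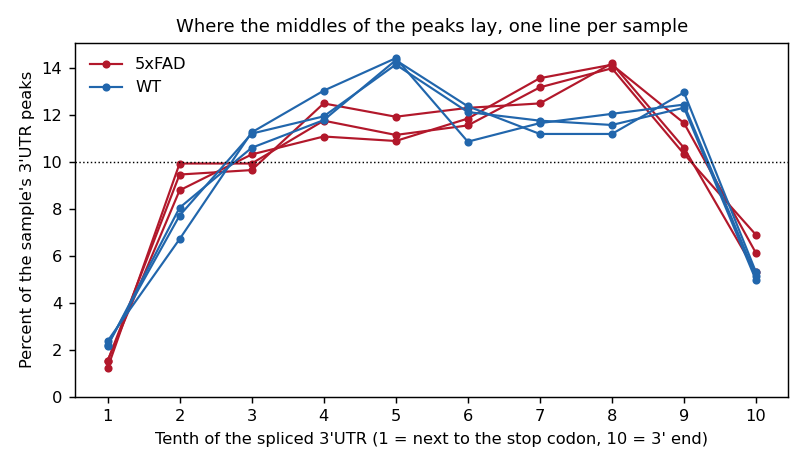
Percent of the placed 3′UTR peaks of each sample whose middle lay in each of 10 equal bins of the spliced 3′UTR, from the stop codon (1) to the 3′ end (10), with one line per sample (5xFAD red, WT blue) and a dotted line at the 10% of an even spread. The 5xFAD lines are highest in bin 8, at 14.0% to 14.2%, and the WT lines in bin 5, at 14.2% to 14.4%. Bins 1 and 10 were partly emptied because a peak inside the 3′UTR cannot have its middle at an end.

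In base composition the 3′UTR peaks resembled the 3′UTRs they lay in. Their median GC content was 47.2% to 48.7% over the 6 samples, against 53.3% to 53.9% for peaks of other classes. For 926 called regions of at least 50 bp, the rest of the same 3′UTR gave 7237 windows of the same length without a listed peak. The mean GC content was 47.5% in the regions and 46.4% in their windows, and C made up 23.9% of the regions and 23.2% of the windows. Of the regions, 60.4% stood above their own windows in GC content and 55.1% in C. CNNCNNCNN was found in 91.1% of the regions and 90.5% of the windows. With so high a share in the windows, the presence of this motif could hardly set the regions apart. The polyadenylation signal AATAAA was found in 16.1% of the regions and 14.6% of the windows, and ATTTA, the core of the AU-rich element that marks short-lived mRNAs, in 30.2% of the regions and 34.4% of the windows. All motifs were searched on the transcript's strand only and a region counted once, so these are shares of regions that hold the letters and not sites. Among the 44 of these regions called in both genotypes, 22.7% held ATTTA, against 38.6% of their windows. Soft-masked bases of the reference, which mark repeats, made up 13.1% ± 0.252 of a 3′UTR peak on average in 5xFAD and 14.1% ± 0.263 in WT, and 4.85% of peaks of other classes in 5xFAD and 4.81% in WT.

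Few 3′UTR regions were shared between the genotypes. Of the 1238 regions, 563 were called in 5xFAD and 572 in WT, and 64 in both, which is 11.4% of the 5xFAD regions and 11.2% of the WT regions. The other 499 were called in 5xFAD only and 508 in WT only, and 167 were called in neither. Of the 1071 3′UTR regions called in either genotype, 46.6% were called in 5xFAD only, where the background over all classes was 43%. Those called in WT only made up 47.4%, with a background of 50.9%, and those called in both 5.98%, with a background of 6.18%. These shares lay near the background, and nothing particular to 3′UTRs is read from them. Of the 499 regions called in 5xFAD only, 488 (97.8%) were listed in no WT sample, with a background of 97.5% over all classes. Of the 508 called in WT only, 487 (95.9%) were listed in no 5xFAD sample, with a background of 95.7%. The count for both was 5 with identical ends, 34 with a peak in all 3 samples of each genotype and 35 with peaks of at least FE 5.

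Samples of a genotype were much alike and those of different genotypes were not. The bases covered by 3′UTR peaks gave a Jaccard index, shared over total bases, of 0.706 ± 0.0235 for the 6 pairs of samples from the same genotype (SD over pairs). For the 9 pairs that joined a 5xFAD and a WT sample it was 0.0589 ± 0.00234. The difference of 0.647 had an exact permutation p of 0.1, the smallest for 3 samples against 3. Over the 459 to 497 regions listed in both samples of a pair within a genotype, Spearman's rho of FE was 0.934 to 0.975. Over the 58 to 68 regions listed in both samples of a pair between genotypes it was -0.532 to -0.322. These are correlations across regions of 2 libraries, and regions are not independent replicates. The lists hold no extraction, library or sequencing batch, so a batch that follows the genotype cannot be told apart from it.

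The overlap was also counted over mRNAs. A called 3′UTR region lay on 531 mRNAs in 5xFAD and 528 in WT, and 106 mRNAs were on both lists, 20.0% of the 5xFAD mRNAs and 20.1% of the WT mRNAs. Counted over regions of any class, 41.5% of the listed genes with a called region in 5xFAD also had one in WT, and 37.9% of those in WT also had one in 5xFAD. There a gene could match through regions of different classes, so these wider shares are not a like background for the 3′UTR shares. On 64 of the 106 a region was called in both genotypes, and on the other 42 the genotypes had separate regions. The nearest of these separate regions lay a median of 805 bp apart, and the gap was under 200 bp on 3 mRNAs. Of the 425 mRNAs with a 3′UTR region in 5xFAD but not in WT, 117 had a WT region of another class and 308 had none. Of the 422 with one in WT but not in 5xFAD, 121 had a 5xFAD region of another class and 301 had none.

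Arc, Ago2 and Mef2c, each on a gene list, were among the 42 mRNAs with separate regions. Arc, an immediate early gene whose mRNA moves to active dendrites, had FE 6.30, 5.77 and 15.5 in the 5xFAD samples in a region 1507 bases after the stop codon, where no WT sample listed a peak. In the WT samples its FE was 218, 172 and 132 in a region 404 bases after the stop codon, where no 5xFAD sample listed a peak. The Arc peak near the 3′ end was thus weak and seen in 5xFAD, and the one near the stop codon strong and seen in WT. Ago2, the Argonaute protein that carries microRNAs, had FE 8.67, 12.7 and 9.09 in 5xFAD in a region 5344 bases after the stop codon. In WT it had 136, 147 and 147 in a region 1648 bases after it, and 19.2, 20.4 and 20.8 in another at 580 bases. The 5xFAD region of Ago2 was placed on a transcript with a 3′UTR of 11067 bases and the WT regions on one of 5283 bases, and none was shared. Mef2c, a neuronal transcription factor and Alzheimer disease risk gene, had FE 11.3, 9.39 and 13.1 in 5xFAD at 541 bases and 26.0, 31.2 and 21.5 in WT at 1357 bases.

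Zbtb20 and Kcnq1ot1 were among the mRNAs with the most called 3′UTR regions. Zbtb20, a transcription factor of hippocampal CA1 neurons with an annotated 3′UTR of 23861 bases, had 5 regions, 3 in 5xFAD with a mean FE of 6.04 to 7.16 and 2 in WT, one with FE 12.5, 15.9 and 13.5 and the other with 19.0, 23.9 and 20.0. Kcnq1ot1 had 7, of which 2 were called in 5xFAD only, 4 in WT only and 1 in both. In that one its FE was 129, 151 and 119 in 5xFAD and 39.8, 50.1 and 37.8 in WT, a log2 fold change of 1.62 ± 0.210 (SE, limma, adjusted p = 0.00143). Soft-masked repeats made up 33.5% of this Kcnq1ot1 region and 100%, 97.9%, 8.33% and 0% of its 4 WT regions, and 53.4% and 29.9% of its 2 5xFAD regions.

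The regions listed in all 3 5xFAD samples and in no WT sample numbered 402, which is 37.5% of the 1071 called, with a background of 30.5% over all classes. The strongest lay on Sik1, a salt-inducible kinase that restrains CREB target genes, with FE 630, 1194 and 502 in the 5xFAD samples (chromosome 17, 31845020 to 31845282). Hist1h2bq, a histone H2B gene, was the listed gene of 2 regions of 207 bp, with FE 527, 589 and 1190 in one and 524, 589 and 1190 in the other. The second of these lay in no gene model on the listed strand, and exons of H4bc24 and Hist1h2br lay there on the opposite strand. The 2 Hist1h2bq regions lay 30705 bp apart and were exact reverse complements with 0 mismatches, so reads cannot tell them apart and they count as 1 sequence. Mmgt2, a membrane protein linked to magnesium transport, had FE 459, 1038 and 487. Fuca2, a secreted fucosidase, had 538, 697 and 607, and Adam19, a membrane metalloproteinase, 577, 700 and 468. Dapp1, an adaptor that binds phosphoinositides, had 351, 471 and 664, and Zfp783, a zinc finger gene, 613, 785 and 489 in a region that lay in a non-coding exon. Each of these 8 regions had an FE of at least 351 in every 5xFAD sample, while the WT samples listed no peak there.

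The regions listed in all 3 WT samples and in no 5xFAD sample numbered 364, which is 34.0% of the 1071, with a background of 34.9%. The strongest lay on Smg9, a factor of nonsense-mediated mRNA decay, in a region that the gene models place in a non-coding exon. The Smg9 region was 65 bp long and soft-masked over 100% of its bases. Its FE was 1028, 1302 and 1498 in the WT samples. Omp, the olfactory marker protein, had FE 649, 656 and 465, and Kcnh1, a voltage-gated potassium channel, 301, 394 and 337. Btg2, an antiproliferative factor that recruits the CCR4-NOT deadenylase, had 346, 632 and 190. Ascc1, a subunit of a transcription coactivator complex, had 271, 293 and 258, and Tmem86a, an enzyme of plasmalogen breakdown, 184, 338 and 263. Zzef1 had 238, 283 and 315. Pxdc1 had 348, 345 and 277, and its region overlapped a 5xFAD peak of the stop codon class, which the 3′UTR lists leave out. The extent of that overlap was not measured. Over the regions called in one genotype only, the median of the mean FE was 17.2 in 5xFAD and 16.9 in WT.

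**Figure D4:**
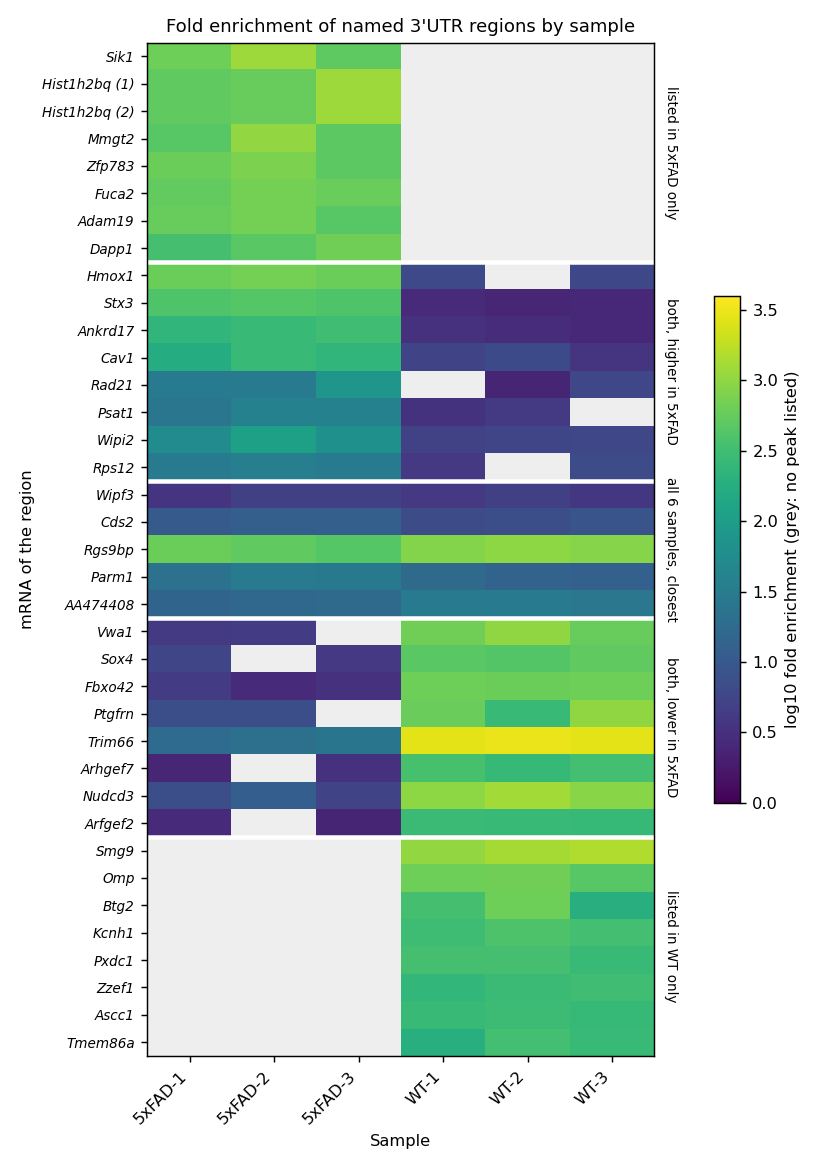
Fold enrichment, as log10 colour, of 37 named 3′UTR regions in each of the 6 samples (5xFAD left, WT right), grouped by where they were listed, with grey where no peak was listed. The regions of the top and bottom groups have a colour in 3 samples only, and most regions of the groups called in both genotypes are bright in 1 genotype and dark in the other. Rgs9bp and AA474408 in the middle group change direction when FE is centred on the median of shared regions.

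Of the 64 regions called in both genotypes, 11 were higher and 28 lower in 5xFAD by limma (adjusted p under 0.05 and at least a 2-fold change on the log2(FE + 1) scale, fitted over the 491 regions of all classes called in both), and 25 were not called. Over all 491 regions the shares were 16.1% higher and 40.3% lower, so the 3′UTR regions lay near this background. The median log2 fold change was -2.29 for the 64 and -1.75 for all 491. When each sample was centred on the median of the regions listed in all 6 samples, which moved the log2 fold changes by a median of 2.12, the calls were 20 higher and 21 lower. The excess of lower calls was present without scaling. Centring on these regions evens out their changes by construction, so the loss of the excess with it decides nothing about its source. FE did not overlap between genotypes in 50 of the 64 regions, 15 higher (23.4%) and 35 lower (54.7%) in 5xFAD, where the background over the 491 regions was 21.2% higher and 47% lower.

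Most shared regions were strong in 1 genotype and weak in the other. The mean FE of the 64 regions had a median of 8.43 in 5xFAD and 75.9 in WT. In 8 regions it reached 50 in 5xFAD but not in WT, in 32 it reached 50 in WT but not in 5xFAD, and in 22 it stayed under 50 in both. It reached 50 in both genotypes in 2 regions, on Rgs9bp, which anchors a regulator of G protein signalling, and on Ints10, of the Integrator complex. Ints10 was chosen after its values were seen, its region lay in coding sequence by the gene models, and 5xFAD replicate 1 did not list it. The mean FE of the genotypes lay within 2-fold of each other in 11 regions and differed more than 10-fold in 8 that were higher in 5xFAD and 29 that were higher in WT. These counts were not made over the shared regions of all classes, so nothing particular to 3′UTRs is read from them.

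**Figure D5:**
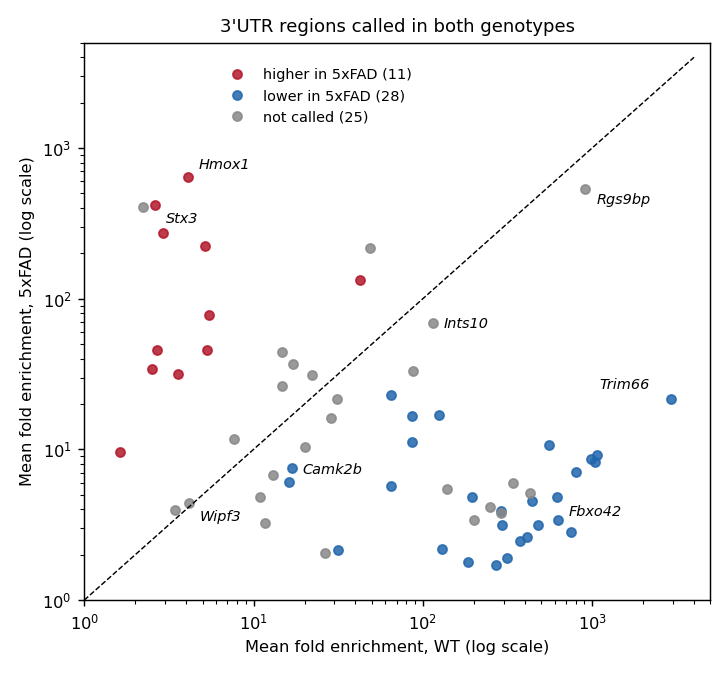
Mean fold enrichment of the 64 3′UTR regions called in both genotypes, in 5xFAD (vertical, log scale) against WT (horizontal, log scale), each point the mean of 3 samples with 0 for a sample without a peak. Red points were higher and blue points lower in 5xFAD by limma, grey points were not called, and the dashed line marks equal values. The points lie along both axes away from the line, with 28 blue points at the lower right and 11 red ones at the upper left, and centring FE on the median of shared regions changes the calls to 21 lower and 20 higher.

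The largest log2 fold changes toward 5xFAD were found on Hmox1 and Stx3. Hmox1, the inducible haem oxygenase, had FE 612, 709 and 620 in the 5xFAD samples, against 6.14, not listed and 6.09 in the WT samples, a log2 fold change of 7.45 ± 0.858 (SE, limma, adjusted p = 0.000934), which was 6.51 without WT replicate 2, the sample not listed. Stx3, a SNARE protein of membrane fusion, had FE 401, 448 and 412 in 5xFAD and 2.81, 2.45 and 2.57 in WT, a log2 fold change of 6.87 ± 0.166 (adjusted p = 5.71e-06). Ankrd17, an ankyrin repeat protein, had 236, 266 and 317 in 5xFAD and 3.29, 2.85 and 2.57 in WT. In all 3 the lowest 5xFAD sample stood far above the highest WT sample, which follows from naming regions by the largest log2 fold change without overlap. Cav1, the main protein of caveolae, had FE 172, 265 and 232 in 5xFAD and 5.49, 6.37 and 3.62 in WT. Wipi2, which binds phosphoinositides in autophagosome formation, had 55.2, 113 and 65.1 in 5xFAD and 5.05, 5.67 and 5.76 in WT. Rad21 of the cohesin complex, Psat1 of serine synthesis and the ribosomal protein gene Rps12 had mean FE of 45.8, 34.3 and 31.6 in 5xFAD and 2.71, 2.5 and 3.58 in WT, each with 1 WT sample not listed and entered as 0. Their calls ended with a pseudocount of 0.1, at adjusted p of 0.0526, 0.0558 and 0.0908, and that of Rps12 also without 5xFAD replicate 2, at 0.0549.

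The regions lower in 5xFAD reached the highest FE of all 3′UTR peaks. Trim66, a chromatin-binding TRIM protein, had FE 18.2, 21.4 and 24.8 in the 5xFAD samples, against 2796, 3140 and 2876 in the WT samples, a log2 fold change of -7.04 ± 0.196 (SE, adjusted p = 6.01e-06). Fbxo42, an F-box protein of a ubiquitin ligase, had 4.21, 2.68 and 3.3 in 5xFAD and 631, 613 and 638 in WT, a log2 fold change of -7.17 ± 0.203 (adjusted p = 6.32e-06). Both were listed in all 6 samples, and the genotypes did not overlap, which the naming rule required. Vwa1, a matrix protein, had FE 4.08, 4.36 and not listed in 5xFAD and 657, 1017 and 589 in WT, a log2 fold change of -7.93 ± 0.757 (adjusted p = 0.00049), which was -7.14 without 5xFAD replicate 3, the sample not listed. Sox4, a transcription factor of neural progenitors, had a mean FE of 3.17 in 5xFAD and 481 in WT, and an exon of Gm26735 lies there on the opposite strand. Ptgfrn, a membrane protein, had a mean FE of 4.86 in 5xFAD and 622 in WT, Arhgef7, an exchange factor for Rac and Cdc42 at synapses, 1.9 in 5xFAD and 315 in WT, and Arfgef2, an exchange factor for ARF GTPases, 1.71 in 5xFAD and 272 in WT. Each of these 3 had 1 5xFAD sample not listed and entered as 0. Nudcd3, a co-chaperone, had a mean FE of 8.21 in 5xFAD and 1045 in WT in a region of a non-coding exon.

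Regions that differed little were mostly of moderate FE. Wipf3, which regulates actin in a WASP complex, had FE 3.53, 4.84 and 4.79 in 5xFAD and 3.95, 4.77 and 3.79 in WT, a log2 fold change of 0.05 ± 0.203 (SE, adjusted p = 0.848). Rgs9bp had 626, 525 and 450 in 5xFAD and 856, 987 and 895 in WT, a log2 fold change of -0.78 ± 0.206 (adjusted p = 0.0226), which turned to 1.34 with median centring. Cds2, an enzyme of phospholipid synthesis, had a mean FE of 11.8 in 5xFAD and 7.62 in WT, and Parm1 26.5 in 5xFAD and 14.8 in WT. The AA474408 region, in a non-coding exon, had 16.0 in 5xFAD and 28.7 in WT. None of these 5 passed the 2-fold limit without scaling, whereas with median centring all 5 were higher in 5xFAD, with log2 fold changes of 1.32 for AA474408 to 2.92 for Parm1.

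Each of the longest called regions exceeded the longest single 3′UTR peak, 1438 bp in 5xFAD replicate 2, and so was merged from several peaks. The 3 longest called regions lay on Hpcal4, a neuronal calcium sensor (1939 bp), on Arf3, an ARF GTPase (1776 bp), and on Camk2b, the beta subunit of calcium/calmodulin-dependent kinase II (1758 bp). Camk2b had FE 7.60, 7.44 and 7.49 in 5xFAD and 16.7, 17.5 and 16.1 in WT, a log2 fold change of -1.06 ± 0.159 (SE, limma, adjusted p = 0.00256), which turned to 1.06 with median centring (adjusted p = 0.00459). The SD over samples was 0.0819 in 5xFAD and 0.660 in WT. With the highest FE of the region in place of the sum, the Camk2b log2 fold change was -0.602. With a pseudocount of 10 it was -0.612, and both were short of the 2-fold limit. Hpcal4 had a mean FE of 1.76 in 5xFAD, from 1 listed sample, and 11.9 in WT, and Arf3 1.91 in 5xFAD, also from 1 listed sample, and 12.8 in WT, and both were called in WT only.

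Gene lists were counted among mRNAs with a listed peak of any class. Over all 4922 such mRNAs, 10.8% had a 3′UTR region called in 5xFAD and 10.7% one called in WT. Of the regulators that bind 3′UTRs, 37 of 54 had a peak, and 7 had a 3′UTR region in 5xFAD and 8 in WT, with Ago2 alone in both. The median of the mean FE in these regions was 10.1 in 5xFAD and 7.92 in WT, against 16.6 in 5xFAD and 18.8 in WT over all mRNAs with a called 3′UTR region. Syncrip, an RNA-binding protein of neuronal transport granules, had FE 198, 204 and 172 in 5xFAD and 2.76 in 1 WT sample. Tnrc6c, a GW182 partner of Argonaute, had 125, 94.2 and 75.1 in 5xFAD only, and Elavl3, which stabilises AU-rich mRNAs in neurons, 130 and 161 in 2 WT samples. No cleavage and polyadenylation factor of the 8 with a peak, and no oxidative phosphorylation gene of the 22 with a peak, had a called 3′UTR region in either genotype. Of the deadenylation, decapping and decay factors with a peak, 3 of 18 had one in WT, Btg1, Btg2 and Smg9, and 0 had one in 5xFAD.

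Of the genes of RNA modification, 2 of 15 with a peak had a 3′UTR region in 5xFAD and 1 of 15 in WT. Alkbh5, the m6A demethylase, had FE 286, 320 and 331 in 5xFAD in a region 3700 bases after the stop codon, and no WT sample listed it. Thumpd1, the adaptor through which NAT10 acetylates tRNA, had 25.7, 20.3 and 26.3 in 5xFAD, and Tet3, an oxidase of methylcytosine, 51.1, 50.7 and 37.7 in WT. Nat10 itself had 0 listed peaks of any class in any sample.

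Synaptic and activity-related lists held similar numbers in both genotypes. Of the mRNAs known to localise to dendrites, 4 of 29 with a peak had a 3′UTR region in 5xFAD and 5 of 29 in WT, with Arc in both. Of the immediate early genes, 2 of 12 had one in 5xFAD, Sik1 and Arc, and 2 of 12 in WT, Btg2 and Arc. Of the glutamate receptor and postsynaptic density genes with a peak, 5 of 35 had a 3′UTR region in 5xFAD and 4 of 35 in WT. Gria1, an AMPA receptor subunit, had FE 20.8, 27.2 and 23.0 in 5xFAD and no listed peak in its 3′UTR in WT. Gria3, another AMPA receptor subunit, had 24.8, 20.6 and 20.4 in 5xFAD, and its region was soft-masked over 51.4% of its bases. Grin1, the obligate NMDA receptor subunit, had 84.8, 85.3 and 75.9 in WT in a region that the gene models place in a non-coding exon. The regions called in 5xFAD only lay on Gria1, Gria2, Gria3 and Grin2b, those called in WT only on Camk2a, Grik2 and Grin1, and Camk2b had one in both. Of the synaptic vesicle genes, 5 of 30 had a region in 5xFAD and 4 of 30 in WT. Stxbp5, tomosyn, an inhibitor of vesicle fusion, had FE 294, 208 and 206 in 5xFAD, and Bsn, bassoon of the active zone, 43.9, 54.4 and 44.0 in WT. Of the GABA signalling genes, 2 of 11 had one in 5xFAD and 3 of 11 in WT, with Gabrg3, a GABA-A receptor subunit, at 149, 123 and 161 in WT.

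The Alzheimer disease list had 4 of 22 genes with a 3′UTR region in 5xFAD and 3 of 22 in WT. Mapt, which encodes tau, had FE 6.80, not listed and 7.65 in 5xFAD and 11.2, 10.9 and 10.8 in WT, a log2 fold change of -1.56 ± 0.918 (SE, limma, adjusted p = 0.223), which turned to 0.57 with median centring (adjusted p = 0.640). Without 5xFAD replicate 2, the sample not listed, the Mapt value was -0.55 (adjusted p = 0.0298), short of the 2-fold limit. Aplp2, a homologue of APP, had 6.08, 7.34 and 6.45 in 5xFAD, and Cd2ap, an endocytic adaptor, 10.6, 13.1 and 17.4 in 5xFAD. App, Thy1, Map2 and Dnajc6 had 0 3′UTR peaks in either genotype. The ubiquitin and proteasome list had 1 of 25 in 5xFAD and 4 of 25 in WT, among them Ube2k, a conjugating enzyme, at 130, 120 and 112 in WT. The ion channel list had 4 of 30 in 5xFAD and 5 of 30 in WT.

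Cell type markers bore 3′UTR regions in both genotypes, mostly on different genes. Astrocyte markers had 3 of 9 in 5xFAD, Gja1, S100b and Slc1a2, and 2 of 9 in WT, Aqp4 and Slc1a3. The connexin gene Gja1 had FE 18.5, 25.9 and 23.0 in 5xFAD, and the water channel gene Aqp4 31.4, 27.5 and 27.8 in WT. Oligodendrocyte markers had 2 of 6 in each, with 1 in both. Mag, in 5xFAD, had FE 3.64, 4.63 and not listed in a region of 34 bp, 29 bases after the stop codon. Mbp, in WT, had 43.14, 46.38 and 38.35. Excitatory neuron markers had 1 of 4 in each, interneuron markers 0 of 5 in 5xFAD and 2 of 5 in WT, and microglia markers 0 of 3 in 5xFAD and 1 of 3 in WT, the chemokine receptor gene Cx3cr1 at 13.3, 18.3 and 12.8 in WT. Oligodendrocyte precursor markers had 1 of 5 in 5xFAD, the orphan receptor gene Gpr17, and 0 of 5 in WT, and endothelial and mural markers 1 of 4 in 5xFAD, Rgs5, and 0 of 4 in WT. Choroid plexus and ependymal markers had 0 of 1 in each. The mRNA levels of these genes were not analysed here, so the part of cell composition in these differences was not tested.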

How the data were processed

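The members and the 21 gene lists were chosen with earlier results of these data known. The 6 acRIP peak lists, 1 per sample, were used. The other 12 libraries, of input and IgG-IP RNA, were not analysed here. According to the methods and the submitters' processing notes, the authors trimmed reads with cutadapt 1.9.3, aligned them to mm10 with HISAT2 2.04 and called peaks per sample with MACS against the input, and removed peaks that overlapped an IgG-IP peak. The deposited FE is a ratio without scaling between samples, the deposited FDR is a percent, and the deposited score is a multiple of the negative log10 of the authors' p-value. The lists hold no counts, so depth and the precision it gives are unknown. In the lists, 11 numbers and 5 gene names or identifiers turned into dates by a spreadsheet were decoded. Start positions were read as 0-based.

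Peaks of 1 class sharing 1 bp or more were merged, and the FE of a region is the sum over its peaks in a sample. Sample values were compared by exact two-sided permutation tests over the 10 assignments, and classes by sign-flip tests over the 6 samples. limma 3.58.1 (R 4.3.3) tested log2(FE + 1) (unlisted samples entered as 0) over regions of all classes called in both genotypes, with Benjamini-Hochberg adjustment, calls at adjusted p under 0.05 and a fold change of 2, and the script was tested on simulated data first. Positions and sequences came from RefSeq and GENCODE models and the mm10 genome with Python 3.11.15, pandas 2.3.3 and pysam 0.24.0. The replicate numbers were not used as a block.

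Named regions were the 8 strongest of each genotype listed in all of its samples and none of the other, up to 8 called by limma in each direction without overlap, the 6 listed in every sample with the smallest change, those of the 3 mRNAs with most regions, the 3 longest, up to 4 per gene list, and Nat10, App, Thy1, Map2, Grin1 and Dnajc6. Some genes that this rule names are not reported here and were not replaced. Alternatives were stricter peaks, other overlaps and calling rules, other pseudocounts, the highest FE, centring on the median, a limit of 10 on mean FE, a replicate block, merging of all classes, a variance trend and leaving out each sample.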

Additional observations from a re-analysis of the deposited data

How the results depend on the processing

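Most values kept their direction and their side of the threshold, with 126 of 145 alternatives for the main values and 289 of 313 for the log2 fold changes of named regions. With only peaks of at least FE 5, the differences 5xFAD minus WT turned to -15 for the number of 3′UTR peaks, 0.452 for the median FE and 0.0543 for its ratio to other peaks, and 35 regions were called in both genotypes, and limma called 5 higher and 12 lower, a setting added after seeing the data for limma. With stop codon peaks included the difference in number was -22. Leaving out 1 sample, the difference in number lay between -1.5 and 19 and that in covered bases between -4172 and 1732, -1800 with all samples. Identical ends gave 367 regions in 5xFAD, 326 in WT and 5 in both, and 34 were called in both with a peak in all 3 samples and 97 with a peak in 1 sample. By limma 7 regions were higher with a pseudocount of 0.1 and 20 with median centring, where Rgs9bp turned to a log2 fold change of 1.34, AA474408 to 1.32, Camk2b to 1.06 and Mapt to 0.57. Leaving out 1 sample, the log2 fold change of Wipf3 lay between -0.0088 (without 5xFAD replicate 2) and 0.174. The causes were not tested. Leaving out 1 sample, 8 to 12 regions were higher and 22 to 31 lower. With the replicate block 9 were higher and 26 lower, and Rps12 was no longer called (adjusted p = 0.0530), and the adjusted p rose above the threshold for Cds2 (0.118), Rgs9bp (0.0852), Parm1 (0.118) and AA474408 (0.0705), which had missed the 2-fold limit. Deviations of same-numbered samples correlated at -0.06, 0.03 and -0.01 over 240 regions of all classes listed in all 6 samples. Over the 34 such 3′UTR regions they correlated at 0.15, 0.40 and 0.13, but 5xFAD replicate 1 correlated best with WT replicate 3. With 3 samples per genotype, these values cannot settle whether the numbers pair the samples. No read counts were used, so what depth limits is unknown.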
